A study of Caenorhabditis elegans with 2 samples.

Results

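The genes described here are the heat shock proteins and related chaperones of Caenorhabditis elegans. They were chosen by name: protein-coding genes of the WBcel235 annotation whose symbols begin with hsp-, dnj- or cct-, with sip-1 and daf-21, and without hsp-3, hsp-4, dnj-7 and dnj-27 of the endoplasmic reticulum. The rule found 56 of 19973 genes: 14 small heat shock genes, 6 genes of the Hsp70/90 group, 27 J-domain genes and 9 chaperonin genes. The gene known as daf-21 is listed as hsp-90. The names do not keep to the cytosol, since hsp-6, hsp-60, hsp-75, dnj-10 and dnj-21 encode proteins of mitochondria. The data are chromatin immunoprecipitation and sequencing peaks of PQM-1, a zinc finger transcription factor, in whole L3 larvae. The worms, of strain OP201, carried an eGFP-pqm-1 transgene (wgIs201) together with unc-119(tm4063) III, with males and females pooled and the exact age unknown. There was 1 group of 2 biological replicates, and no heat, starvation or other second condition. The sources used here do not name the promoter that drives the transgene, and in whole larvae the tissues cannot be told apart.

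Chaperones bind unfolded proteins and help them fold or stay soluble. Small heat shock proteins hold unfolded proteins without using ATP, Hsp70 proteins fold them in cycles that J-domain proteins start and Hsp110 resets, Hsp90 finishes many signalling proteins, and the ring-shaped CCT chaperonin folds actin and tubulin. Heat raises the transcription of many of these genes through heat shock factor HSF-1, which binds heat shock elements built of GAA units in alternating direction. PQM-1 is known for a role beside the FOXO factor DAF-16 downstream of insulin signalling, where it has been linked with the element TGATAAG.

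A gene was called bound when a peak of the authors' optimal list had its summit between 1000 bp upstream and 250 bp downstream of the gene's 5' end. Of the 56 genes, 19 were bound (33.9%, exact binomial 95% interval 21.8 to 47.8), beside 16.3% of all 19973 protein-coding genes. The bound genes were the Hsp70 genes hsp-1 and hsp-6 with hsp-110, the chaperonin genes cct-1, cct-6, cct-7, cct-8 and hsp-60, the J-domain genes dnj-9, dnj-11, dnj-12, dnj-13, dnj-14, dnj-16, dnj-19, dnj-20 and dnj-22, and the small heat shock genes hsp-17 and sip-1. Most of these summits lay between 2 genes. In 15 of the 19, the summit was also in the promoter of a gene on the other strand, and in 12 another gene's 5' end was the nearer. When each summit was given only to the gene with the nearest 5' end, 7 of the 56 genes were bound (12.5%, interval 5.18 to 24.1), beside 13.2% of all genes. The count stood above the genome share under the first rule and not under the second, and which gene of a pair the binding concerns cannot be told apart.

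By class, 3 of 6 Hsp70/90 genes (50%, interval 11.8 to 88.2), 5 of 9 chaperonin genes (55.6%, 21.2 to 86.3), 9 of 27 J-domain genes (33.3%, 16.52 to 54.0) and 2 of 14 small heat shock genes (14.3%, 1.78 to 42.8) were bound. The share of all genes was 16.3%, and the small heat shock share was near it. The intervals overlap, so no order among the classes follows from these counts, and they cover counting error only. With the nearest 5' end the classes stood at 1, 0, 5 and 1 bound genes in the same order, beside 13.2% of all genes. The chaperonin class thus went from the highest share to none. Its hsp-60 summit passed to Y22D7AL.10, a related gene described below whose symbol the naming rule does not match. The 7 genes that were themselves nearest to their summit were hsp-1, hsp-17, dnj-9, dnj-12, dnj-13, dnj-16 and dnj-20.

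**Figure D1:**
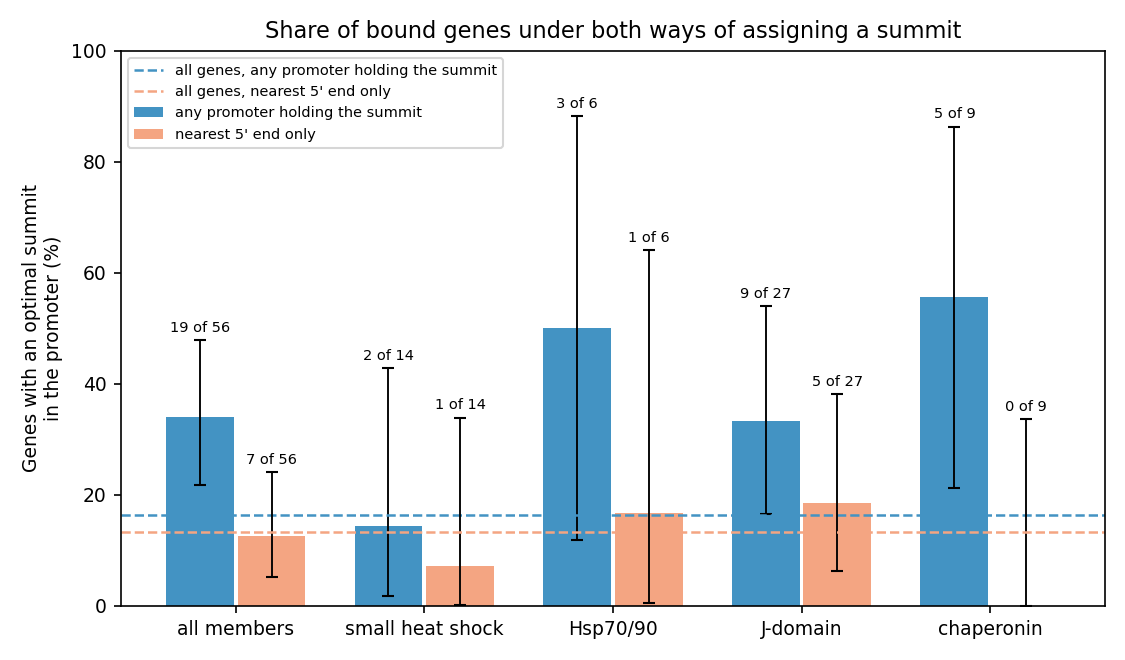
Share of genes (%) with an optimal summit in the promoter, for all 56 genes and each class, when every promoter that holds the summit counts (blue) and when only the nearest 5' end counts (orange). Error bars are exact binomial 95% intervals and dashed lines give the same shares over all protein-coding genes, 16.3% and 13.2%. The first count for all 56 genes is 19 and the second is 7, and the chaperonin bar goes from 5 of 9 to 0 of 9.

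The Hsp70/90 genes held some of the strongest member peaks. The signal is a score set by the authors with no stated scale, so it ranks peaks within a list only. hsp-1 encodes the constitutive cytosolic Hsp70, and its peak lay at chrIV:17278476-17278629 on ce11. The peak had a signal of 103.9 and rank 444 of 5560, with a summit 398 bp upstream of the 5' end. In replicate 1 it had a signal of 77.5 (rank 457) and in replicate 2 a signal of 26.1 (rank 633). No other promoter held this summit, so of the 4 member peaks within the strongest 1000 it was the only one that was not shared. hsp-110 encodes the Hsp110 that exchanges nucleotide on Hsp70. Its peak at chrIII:8447084-8447215 had a signal of 99.3 (rank 499), 259 bp upstream, with 71.3 (rank 594) in replicate 1 and 28.6 (rank 473) in replicate 2. Its summit was nearer to rpn-3, a proteasome subunit gene on the other strand, at 185 bp upstream of that 5' end. hsp-6 encodes the mitochondrial Hsp70. The hsp-6 peak at chrV:4827029-4827368 was weaker, with a signal of 49.6 (rank 2266), 439 bp upstream, and shared with C37H5.5, whose 5' end was 161 bp away. It had a signal of 42.5 (rank 1815) in replicate 1 and 6.44 (rank 8053) in replicate 2, so the replicates placed it far apart. The letters within 50 bp of these 3 summits, from the RefSeq WBcel235 genome and on the strand of the chaperone gene, show how the bound promoters of the class read, and capitals mark heat shock elements.
hsp-1 (chrIV:17278511-17278611, plus strand): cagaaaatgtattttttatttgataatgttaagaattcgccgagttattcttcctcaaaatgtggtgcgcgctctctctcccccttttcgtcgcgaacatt
hsp-110 (chrIII:8447118-8447218, minus strand): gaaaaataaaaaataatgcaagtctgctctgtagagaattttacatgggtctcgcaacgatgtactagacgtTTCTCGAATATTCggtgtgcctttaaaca
hsp-6 (chrV:4827149-4827249, minus strand): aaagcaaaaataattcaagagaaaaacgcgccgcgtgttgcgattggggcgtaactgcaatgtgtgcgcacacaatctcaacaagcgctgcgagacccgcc

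The other 3 genes of the class were not bound at the outer 5' end. hsp-90, the cytosolic Hsp90 gene, has 2 annotated 5' ends, and its optimal peak at chrV:14685582-14685921 lay between them, in an intron, 834 bp downstream of the outer end and 408 bp upstream of the inner one. That peak was strong, with a signal of 85.8 and rank 767 (72.3 and rank 573 in replicate 1, 13.3 and rank 2551 in replicate 2). Its summit also lay in the promoter of C47E8.4. When a promoter was drawn at the 5' end of every transcript, hsp-90 joined the bound genes and made them 20 of 56, beside 17.7% of all genes. The outer hsp-90 promoter held a weak peak of the pooled relaxed list, with a signal of 7.59 (rank 15219 of 30000). That list is labelled as peaks and background, so a weak entry in it may be background. hsp-70, a heat-induced cytosolic Hsp70 gene, held a weak relaxed peak too, with a signal of 5.45 (rank 22151), and its nearest optimal summit was 5334 bp upstream. hsp-75, the mitochondrial Hsp90 gene, held no peak of the pooled list, and its nearest optimal summit was 14504 bp downstream of its 5' end. The window at the inner hsp-90 end is shown because it sets this gene apart from the outer-end rule, with capitals again marking the heat shock element.
hsp-90 (chrV:14685702-14685802, plus strand): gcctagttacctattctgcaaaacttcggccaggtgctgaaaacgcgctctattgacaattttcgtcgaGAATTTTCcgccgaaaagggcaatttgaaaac

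Among the chaperonin genes, 4 of the 8 CCT subunit genes and the mitochondrial hsp-60 were bound, each through a shared promoter. cct-1 had the strongest peak of all 56 genes, at chrII:8185116-8185250, with a signal of 105.9 (rank 424) and a summit 254 bp upstream. It had a signal of 81.1 (rank 402) in replicate 1 and 25.5 (rank 680) in replicate 2. The other gene there was mig-5, which encodes a Dishevelled protein of Wnt signalling, and its 5' end was 166 bp from the summit. The cct-8 peak at chrIV:1094198-1094537 had a signal of 81.2 (rank 892), with 67.5 (rank 705) in replicate 1 and 16.407 (rank 1809) in replicate 2. Its summit was 448 bp upstream of cct-8 and 173 bp upstream of Y55F3AR.2. Both peaks thus ranked high in each replicate. cct-6 and cct-7 were weaker. The cct-6 peak at chrIII:5855830-5856169 had a signal of 42.9 (rank 2859), with 34.4 (rank 2578) in replicate 1 and 6.60 (rank 7678) in replicate 2. The aldehyde dehydrogenase gene alh-9 began 18 bp from that summit, and cct-6 began 313 bp from it. The cct-7 peak at chrV:1871779-1872118 had a signal of 39.99 (rank 3160), with 33.7 (rank 2646) in replicate 1 and 8.48 (rank 5067) in replicate 2. Its summit was 297 bp upstream of cct-7 and 142 bp upstream of T10B5.4. hsp-60 encodes the chaperonin of mitochondria, and its neighbour Y22D7AL.10 encodes the small mitochondrial heat shock protein that caps it, by the RefSeq product name. Their common peak at chrIII:1618953-1619292 had a signal of 56.4 (rank 1851), 619 bp upstream of hsp-60 and 194 bp upstream of Y22D7AL.10. It had a signal of 45.5 (rank 1619) in replicate 1 and 9.31 (rank 4366) in replicate 2. No heat shock element was within 50 bp of the 5 chaperonin summits, while within 100 bp each of the 5 had at least 1. The strongest 2 windows and that of hsp-60 are shown, over 50 bp to each side and so with nothing in capitals.
cct-1 (chrII:8185139-8185239, plus strand): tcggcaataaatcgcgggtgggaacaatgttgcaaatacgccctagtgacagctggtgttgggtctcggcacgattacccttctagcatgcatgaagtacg
cct-8 (chrIV:1094318-1094418, minus strand): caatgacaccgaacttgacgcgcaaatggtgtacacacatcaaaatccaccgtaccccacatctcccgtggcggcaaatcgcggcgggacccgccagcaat
hsp-60 (chrIII:1619073-1619173, plus strand): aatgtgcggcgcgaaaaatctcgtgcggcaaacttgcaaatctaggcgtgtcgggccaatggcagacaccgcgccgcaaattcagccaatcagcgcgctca

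The unbound CCT genes were cct-2, cct-3, cct-4 and cct-5. Of these, cct-4 (signal 17.9, rank 7031), cct-2 (16.8, rank 7416) and cct-5 (14.9, rank 8106) had a promoter peak in the pooled relaxed list, and cct-3 held none. cct-5 differed from the others in its gene body, which held 4 optimal summits, all in introns. The strongest of these, 1206 bp downstream of the 5' end, had a signal of 98.2 and rank 514, and the other 3 had signals of 45.8, 36.3 and 26.1. No promoter of a protein-coding gene held them.

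**Figure D2:**
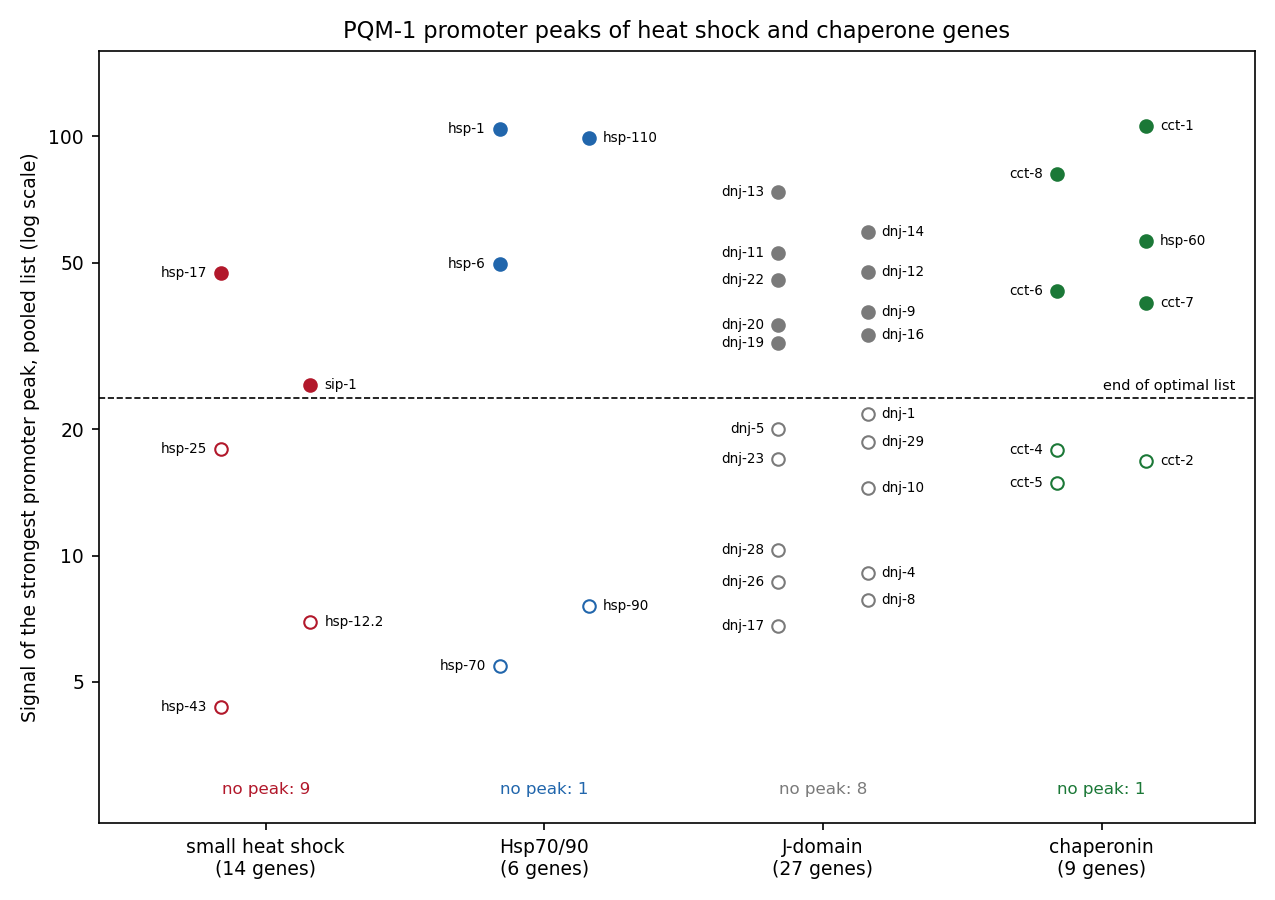
Signal of the strongest promoter peak of each gene in the pooled list (authors' score, log scale) by class, with filled points for peaks in the optimal list, open points for weaker peaks and the dashed line at the end of the optimal list, 23.8. The number of genes with no promoter peak in the pooled list stands below each class. The small heat shock genes have 2 filled points and 9 genes with no peak, and cct-1, hsp-1 and hsp-110 are at the top.

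Of the 14 small heat shock genes, 2 were bound (14.3%), which is near the 16.3% of all genes. hsp-17 was bound at chrV:8386147-8386486, with a signal of 47.3 (rank 2442) and a summit 388 bp upstream that no other promoter held. Its peak had a signal of 21.9 (rank 4546) in replicate 1 and 21.3 (rank 1091) in replicate 2. sip-1, a small heat shock gene known for its expression in the germ line and embryos, had the weakest of the 19 peaks, at chrIII:10506853-10507192, with a signal of 25.5 (rank 5218). The lowest signal in the optimal list was 23.8, so this peak stood near its end. Its summit was 222 bp upstream of sip-1 and 35 bp upstream of the vesicle transport gene sly-1. The sip-1 peak had a signal of 15.6 (rank 6154) in replicate 1 and 8.40 (rank 5124) in replicate 2. Of the other 12 genes, hsp-25 held the strongest relaxed peak, with a signal of 17.99 (rank 7007), 961 bp upstream. hsp-12.2 and hsp-43 held weaker ones, with signals of 6.93 and 4.35. hsp-12.1, hsp-12.3 and hsp-12.6 held none in the pooled list, although an optimal peak with a signal of 46.7 (rank 2492) had its summit in an exon of hsp-12.3, 683 bp downstream of its 5' end. That summit was in the promoter of F38E11.9.

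The 6 hsp-16 genes, small heat shock genes known for strong induction by heat, held no promoter peak in the optimal list, the pooled relaxed list or the relaxed list of either replicate. They lie in 3 divergent pairs. For hsp-16.2 and hsp-16.41 the nearest optimal summit was 9362 bp upstream and 9141 bp downstream of the 5' end. For the pairs named hsp-16.1 and hsp-16.48 it was 1749 to 4044 bp away, nearest to hsp-16.1 (WBGene00002015). The latter 2 pairs are an inverted repeat, chrV:9087293-9088617 and chrV:9089280-9090604, in which 1325 of 1325 bases were identical. How the authors placed reads that match both copies is not stated in the labels or notes, so the lack of a peak there is limited by that. The pair of hsp-16.2 and hsp-16.41 was 75.1% identical to a copy. Counted with the copies once, a count chosen after seeing the data, 2 of 12 small heat shock genes were bound. The 220 bases between hsp-16.2 and hsp-16.41 are shown as the heat shock promoter without a peak, and capitals mark its heat shock elements, the first of which has 3 units.
hsp-16.2 to hsp-16.41 (chrV:1804958-1805177, plus strand): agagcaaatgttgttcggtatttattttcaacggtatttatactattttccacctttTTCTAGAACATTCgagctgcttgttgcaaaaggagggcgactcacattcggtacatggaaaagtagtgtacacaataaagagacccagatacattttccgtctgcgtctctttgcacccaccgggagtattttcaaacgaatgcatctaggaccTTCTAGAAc

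The 9 bound J-domain genes had signals from 32.1 to 73.5. None of the 27 genes of the class had one of the strongest 1000 peaks (interval 0 to 12.8%). Of all genes 2.88% had one, so this 0 is near the genome share. dnj-13 encodes a cytosolic Hsp40 of the DNAJB type and led the class. Its peak at chrII:11545324-11545663 had a signal of 73.5 (rank 1126), 207 bp upstream, and was ranked 706 (67.5) in replicate 1 and 5862 (7.73) in replicate 2. The neighbour F54D5.9 began 666 bp from that summit, so dnj-13 was the nearer gene. dnj-14 encodes the cysteine string protein of synaptic vesicles. The dnj-14 peak at chrX:4711956-4712295 had a signal of 59.2 (rank 1694), 378 bp upstream, with rank 1919 (41.3) in replicate 1 and 1534 (18.05) in replicate 2. It was shared with glit-1, 153 bp from the summit. dnj-11, a homologue of the ribosome-associated factor ZRF1, was bound at chrIV:6585432-6585771 with a signal of 52.6 (rank 2077), 269 bp upstream and 202 bp from F38A5.2. Its replicate ranks were far apart, at 1429 (signal 48.6) in replicate 1 and 14314 (signal 4.62) in replicate 2.

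dnj-12 encodes a cytosolic Hsp40 of the DNAJA type. Its peak at chrI:14756648-14756987 had a signal of 47.4 (rank 2433) and lay closest to its gene, 86 bp upstream, with mtx-1 at 406 bp. It was ranked 3565 (27.01) in replicate 1 and 1184 (20.5) in replicate 2. dnj-22 (chrV:8462116-8462455, signal 45.4, rank 2603) was bound 166 bp upstream, and natc-1 began 73 bp from the summit. Its ranks were 2717 (33.2) in replicate 1 and 3627 (10.5) in replicate 2. dnj-9 (chrII:4851639-4851978, signal 38.1, rank 3375) was bound 247 bp upstream with no shared gene, and it was the single member whose peak overlapped none of replicate 2's, while replicate 1 had it at rank 2942 (31.3). dnj-20, whose human counterpart DNAJB11 works in the endoplasmic reticulum, had its peak at chrII:9624156-9624495 with a signal of 35.5 (rank 3669), 150 bp upstream and 287 bp from ZK1307.8. The replicates ranked it 4850 (20.5) and 2613 (13.0). dnj-16 (chrIII:4191214-4191553, signal 33.6, rank 3903) was the exception in position, with its summit in an intron 243 bp downstream of the 5' end, and with ranks of 4606 (21.7) and 2794 (12.5) in the replicates. dnj-19, another gene of the DNAJA type, had its peak at chrV:5505127-5505466 with a signal of 32.1 (rank 4120) and a summit 440 bp upstream, which lay 44 bp downstream of the 5' end of nhr-47. It was ranked 3140 (30.05) in replicate 1 and 3974 (9.86) in replicate 2. The replicate 2 summit was 194 bp from the optimal summit, so those peaks overlapped only in part.

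Of the 18 unbound J-domain genes, 10 held a relaxed promoter peak in the pooled list and 8 did not. The strongest were dnj-1 (signal 21.8, rank 5995), dnj-5 (20.03, rank 6450) and dnj-29 (18.7, rank 6800), and dnj-29 encodes a Sec63 protein of the endoplasmic reticulum. These fell below the optimal list, which ended at rank 5560 with a signal of 23.8. In replicate 2, dnj-29 had no promoter peak, while dnj-1 and dnj-5 had one. Over all classes, 18 of the 37 unbound genes (48.6%) held such a relaxed peak, beside 34.4% of all unbound genes. With every entry of the pooled relaxed list counted, 37 of the 56 genes (66.1%) had one in the promoter, beside 45.1% of all genes. As the list is labelled as peaks and background, these counts may include background. dnj-24 held 2 optimal summits in introns, with signals of 42.9 and 37.3, and the summit nearest to dnj-21 was 1257 bp downstream of its 5' end and outside the gene.

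**Figure D3:**
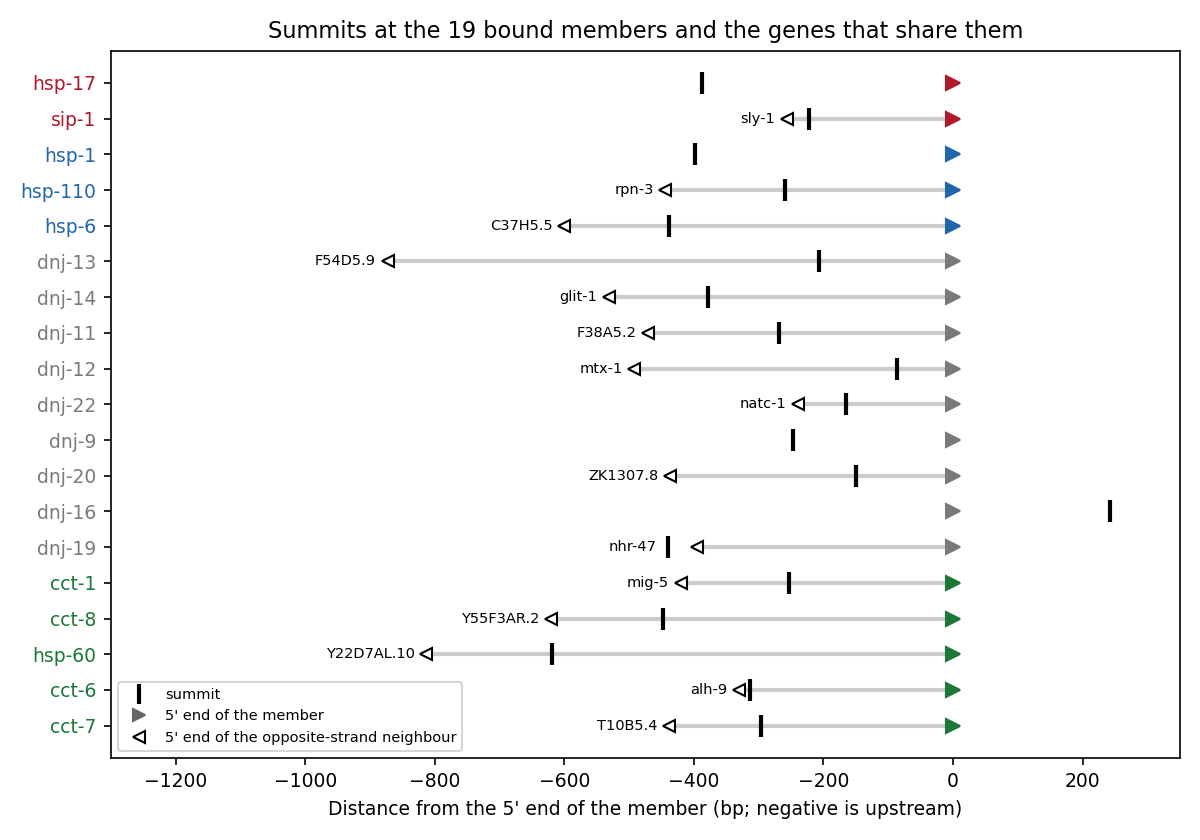
Position of the optimal summit (black bar) at each of the 19 bound genes, in bp from the gene's 5' end (filled triangle, negative is upstream), with the 5' end of the opposite-strand gene that shares it (open triangle). In 15 genes the summit is shared. The 4 genes without a partner are hsp-1, hsp-17, dnj-9 and dnj-16, and the dnj-16 summit is the one downstream.

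The summits lay mostly upstream, as did those of all genes. Of the 19, 18 lay upstream of the 5' end (94.7%, beside 91.8% of all gene and summit pairs) and 17 lay 50 to 500 bp upstream (89.5%, beside 60.4%). That band was not part of the plan, so the gap between its shares is a description only. The median was 269 bp upstream, beside 215.5 bp for all pairs. A shared summit was found at 15 of the 19 (78.9%), beside 1268 of 3260 bound genes (38.9%). The layout of the genes differed in the same way. An opposite-strand 5' end within 1000 bp upstream was found for 29 of the 56 genes (51.8%), beside 17.7% of all genes. With such a neighbour, 16 of 29 were bound (55.2%, beside 29.0% of all such genes), and without one 3 of 27 were bound (11.1%, beside 13.6%). By class the genes with a neighbour were bound in 2 of 2 (Hsp70/90), 5 of 7 (chaperonin), 8 of 13 (J-domain) and 1 of 7 (small heat shock) cases. These counts by neighbour were chosen after seeing the data. The 6 hsp-16 genes each have a divergent neighbour, and none of them was bound. The part of this layout in the counts above was not tested beyond these values.

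Peak strength at the bound genes was close to that of all bound genes. Their median signal was 47.4, beside 43.7 for all 3260 bound genes, and the range was 25.5 to 105.9. In the stronger 2780 of the optimal peaks, 12 of the 56 genes had a summit (21.4%, beside 8.19% of all genes), and in the strongest 1000, 4 had one, namely cct-1, hsp-1, hsp-110 and cct-8 (7.14%, beside 2.88%). Of the 19 bound genes, 12 had their peak in that stronger set (63.2%, beside 50.2% of all bound genes). A narrower promoter, 500 bp upstream to 100 bp downstream, left 17 genes bound, without dnj-16 and hsp-60, beside 12.5% of all genes. A wider one, 2000 bp to 500 bp, left the same 19, while the share of all genes grew to 21.2%.

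Nearly all of these peaks were in both replicate lists. The optimal list was drawn from these same 2 replicates, so the overlap is not independent support. All 19 overlapped a peak of replicate 1, beside 99.9% of all 2753 promoter peaks. A peak of replicate 2 was overlapped by 18 (94.7%, beside 92.8%). With a larger shared part required, 17 were in both, without dnj-9 and dnj-19. Among the 5560 strongest peaks of each replicate, 18 were found in replicate 1 (94.7%, beside 92.3%) and 14 in replicate 2 (73.7%, beside 70.5%). In both there were 13 (68.4%, beside 64.5%). Without replicate 1, that is with the strongest 5560 peaks of replicate 2, 14 of the 56 genes were bound (25%, beside 13.8% of all genes), and cct-6, dnj-9, dnj-11, dnj-13 and hsp-6 were not. Without replicate 2, 22 were bound (39.3%, beside 16.6%), with cct-5, dnj-1, dnj-10 and dnj-29 gained and sip-1 lost. The highest ranks in both replicates belonged to hsp-110, hsp-1 and cct-1. The depth of each library is unknown, since the lists hold no reads.

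**Figure D4:**
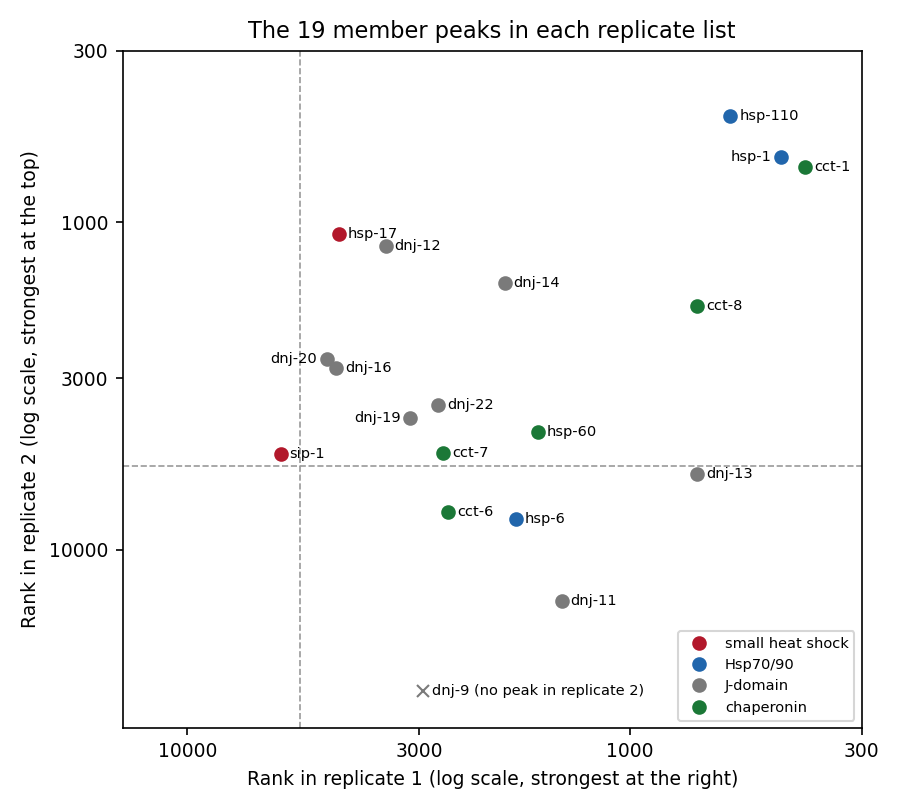
Rank of each of the 19 member peaks in the relaxed list of replicate 1 (horizontal, log scale) and replicate 2 (vertical, log scale), coloured by class, with dashed lines at rank 5560 of each list. hsp-110, hsp-1 and cct-1 are in the upper right corner, dnj-11 is at rank 1429 and 14314, and the cross marks dnj-9, which has no peak in replicate 2.

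The letters at the summits were then searched on both strands. TGATAAG was within 50 bp of 0 of the 19 member summits, beside 21.9% of all 2753 promoter peaks, and within 100 bp of 0, beside 30.8%. Its first 6 letters, TGATAA, counted after seeing the data, were at 3 (hsp-1, hsp-17 and dnj-22), beside 39.4%. The GATA form AGATAA was at 0 (beside 11.4%), and the DAF-16 site GTAAACA was at 1, dnj-22 (beside 3.56%). The heat shock element was counted as TTCNNGAA or GAANNTTC, each of which reads the same on both strands. It was at 4 summits, those of hsp-110, hsp-17, dnj-12 and dnj-13 (21.1%, beside 6.32%), and within 100 bp of 10 (52.6%, beside 15.5%). A run of 3 alternating units was at 1 member summit, that of hsp-110 shown above, beside 6 of 2753 (0.218%). The window of 14 members held none of these motifs apart from TGATAA. The median GC content within 50 bp was 48.5% at member summits, beside 39.6% at all promoter peaks, and its part in these counts was not tested.

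Nearer to the 5' end, from 250 bp upstream to 50 bp downstream, the promoters of all 56 genes were searched the same way. TGATAAG was in 0 of 56, beside 9.23% of all genes, and in 6 (10.7%, beside 24.2%) over the full promoter. AGATAA was in 11 (19.6%, beside 21.2%) and GTAAACA in 5 (8.93%, beside 4.78%). Either heat shock element was in 27 (48.21%, beside 32.6%): 7 of 14 small heat shock, 4 of 6 Hsp70/90, 9 of 27 J-domain and 7 of 9 chaperonin genes. Over the full promoter it was in 50 (89.3%, beside 81.2%), so the gap to all genes was smaller there. The longer run of 3 units, a motif chosen after seeing the data, was in 11 (19.6%, beside 1.98%). These were the 6 hsp-16 genes, hsp-1, hsp-70, hsp-90, hsp-110 and dnj-12, so no CCT gene was among them. The hsp-16 genes lie in divergent pairs that share the sequence between them, and some pairs are identical copies. Counts that include them, for this run and for either element, therefore repeat the same letters and are not separate sequences. Of the genes with the longer run, 3 were bound and 8 were not, which is 15.8% of the bound and 21.6% of the unbound genes. Over the full promoter the order was reversed, with 6 of the 19 bound (31.6%) and 9 of the 37 unbound genes (24.3%). The share of all genes there was 7.94%. A match is a description and not a site in use.

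The dnj-12, dnj-13 and dnj-20 windows shared letters with each other, seen after the data were searched for common runs. Each held CGCTCCACCG, which was in 15 of 2753 promoter peaks (0.545%). Each also held the overlapping run GTGCGCTCCA, so the letters in common went further than CGCTCCACCG alone. The dnj-13 and dnj-20 windows are shown because CGCTCCACCG falls at different places in them, with capitals marking it.
dnj-13 (chrII:11545444-11545544, plus strand): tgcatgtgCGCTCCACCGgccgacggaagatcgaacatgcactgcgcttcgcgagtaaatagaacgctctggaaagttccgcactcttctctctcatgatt
dnj-20 (chrII:9624276-9624376, minus strand): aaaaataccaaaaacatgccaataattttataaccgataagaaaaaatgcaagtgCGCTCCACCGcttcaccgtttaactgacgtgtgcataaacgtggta

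Other genes of the heat shock pathway were read from a list of co-chaperones, heat shock factors and prefoldin subunits. The list also held ubql-1, cdc-48.1, cdc-48.2, F44E5.4 and F44E5.5, some of which fit none of these kinds. F44E5.4 and F44E5.5, whose symbols the naming rule does not match, were not bound and were counted only with the pooled relaxed list. Of 26 genes found, 8 were bound (30.8%, interval 14.3 to 51.8, beside 16.3% of all genes). They were cdc-48.1, an AAA ATPase that extracts ubiquitinated proteins (signal 210.7, rank 25), pfd-1, a prefoldin subunit (98.1, rank 515), ubql-1, a ubiquilin (79.7, rank 927), ahsa-1, the activator of the Hsp90 ATPase (79.4, rank 939), bag-1 and unc-23, exchange factors of Hsp70 (74.1 and 36.3), sti-1, which links Hsp70 and Hsp90 (53.6), and pph-5, a phosphatase of the Hsp90 machine (26.1). With the nearest 5' end, 6 of the 26 remained (23.1%, beside 13.2% of all genes), without ahsa-1 and pph-5. The pfd-1 summit at rank 515 was nearer to F01G4.6, so pfd-1 remained only through a weaker peak (signal 41.4, rank 3007). hsf-1, the heat shock factor gene, was not bound, but with the wider promoter it and ddl-1 were, which made 10 of the 26 bound, beside 21.2% of all genes. The relatives in the endoplasmic reticulum that the naming rule leaves out were counted with enpl-1 and stc-1. Of these, 3 of 6 were bound (50%, interval 11.8 to 88.2, beside 16.3% of all genes), namely hsp-3, enpl-1 and stc-1. The same 3 were bound with the nearest 5' end, beside 13.2% of all genes.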

How the data were processed

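PQM-1 chromatin immunoprecipitation peaks of 1 group of 2 biological replicates were read from 4 lists on ce11. Per the file headers and notes, the authors called a relaxed list for each replicate and for both together (30000 peaks) and kept an optimal list of 5560. The label of the pooled relaxed list says that it holds peaks and background. The signal is a score that the authors deposited with no stated scale, and fragments were 150 to 350 bp, per the labels. No aligner, peak caller or threshold is named in the sources used here. The control library and the ce10 lists were not used here. Summits were read against the Ensembl 115 annotation of WBcel235, the same assembly as ce11, and letters from the RefSeq genome. Of 33 other listed symbols, 1 was not found. Intervals are exact binomial (Clopper-Pearson, 95%), and no p-value was computed. Lists overlapped at 1 bp or more. The counting was tested on simulated peaks. The members and lists were chosen with earlier results of these data known. Genes named are the bound members, the strongest 5 with a relaxed peak only, the small heat shock and Hsp70/90 genes, and unbound genes with a summit in the body or within 2000 bp; others were named after their values were seen. Python 3.11.15, numpy 2.4.6, pandas 2.3.3, scipy 1.17.1, matplotlib 3.10.9 and edlib 1.3.9.post1 were used.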

Additional observations from a re-analysis of the deposited data

How the results depend on the processing

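The count of 19 bound genes changed with the rule that gives a summit to a gene and with the number of peaks kept. With the nearest 5' end it was 7, with the strongest 1000 peaks 4, with the stronger 2780 it was 12, and with the pooled relaxed list 37. Of all protein-coding genes, 13.2%, 2.88%, 8.19% and 45.1% were counted in these settings, in the same order. The small heat shock shares were 7.14%, 0%, 7.14% and 35.7%, none of them above the share of all genes. In the same order of settings the small heat shock genes gave 1, 0, 1 and 5 (main count 2), the J-domain genes 5, 0, 5 and 19 (9), and the chaperonin genes 0, 2, 3 and 8 (5). The Hsp70/90 genes gave 1 with the nearest 5' end and 5 with the relaxed list (3). Leaving out a replicate gave 14 to 22 over all members, 1 to 2 small heat shock, 2 to 3 Hsp70/90, 6 to 12 J-domain and 4 to 6 chaperonin genes. The share of all protein-coding genes was 13.8% without replicate 1 and 16.6% without replicate 2. The other pathway list gave 4 with the strongest 1000 and 23 with the relaxed list (8), and the endoplasmic reticulum relatives 5 with the relaxed list (3). Heat shock elements were in 50 promoters over 1000 bp upstream to 250 bp downstream, beside 27 over the shorter window (89.3% and 48.21%, where all genes gave 81.2% and 32.6%). Changed promoter widths and all 5' ends moved each class by less than 1.5 times. The cause of these shifts was not tested beyond what each setting counts. Depth is unknown, so the lack of a peak is not shown to be a lack of binding.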

Other observations

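The member windows also held 2 heptamers in common, both picked after seeing the data and given with no test. AACGCGC was within 50 bp of 5 of the 19 summits (dnj-9, dnj-11, dnj-14, dnj-22 and hsp-6), beside 4.03% of promoter peaks. GAGCGCA was at 5 others (cct-7, dnj-12, dnj-13, dnj-19 and dnj-20), beside 2.83%, and it overlaps the run that dnj-12, dnj-13 and dnj-20 share. Further optimal summits lay in introns of bound genes, 5208 bp downstream of the 5' end in dnj-9, 4694 bp in dnj-20 and 2829 bp in hsp-60. The ahsa-1 summit, unlike those of the 19 members, had TGATAAG within 50 bp.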
